A study of Prunus sibirica with 30 samples.

Results

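Flowers of the frost-resistant Siberian apricot clone CR (Prunus sibirica, clone 453) were followed from 15 min to 2 h at -4 °C, the stretch of continued cold that came after an early fall of most abundant transcripts. The comparison set the 3 libraries of CR at 2 h against the 3 of CR at 15 min, 6 of the 30 libraries in the study, over all 143 genes with a complete entry in the table used here. The question was which genes regained their level while the cold went on and which did not. Clone 371 (NC), described as weakly frost resistant, was sampled at the same 5 times (0 h, 15 min, 30 min, 1 h and 2 h), and serves here only to show where CR differs. Pistil at bloom is the labelled tissue, whereas the extraction is described for flowers or flower buds. All groups are from flowers at -4 °C with no group held at another temperature for the same time, so cold and elapsed time or handling cannot be told apart. Each line is a single clone, and no label ties the 3 replicates of a group to separate trees, so p-values cover only the spread among the samples at hand, part of which may be technical.

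The table holds abundant transcripts, and many of them serve protein synthesis. Ribosomal proteins of the large (60S) and small (40S) subunit are needed in matched amounts to build ribosomes, and their genes are often regulated together. Elongation factor 1-alpha brings aminoacyl-tRNA to the ribosome. Glycine-rich RNA-binding proteins bind RNA and are known in Arabidopsis for a part in cold responses. Late embryogenesis abundant (LEA) proteins, aquaporins and chaperones are further groups that plants are known to adjust in the cold. Of the 143 genes, 69 code for ribosomal proteins (43 of the 60S and 26 of the 40S subunit). Names are the best match in the deposited description, 137 genes had one, and 27 genes shared a name with another gene, so that reads of near-identical copies may have been split between them.

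Levels are in FPKM, the fragments counted for a gene per kilobase of its length relative to a library total, and tests were run with limma on log2(FPKM + 1), adjusted over all 143 genes with a threshold of 0.05. In the 6 libraries single values lay between 308 and 4974 FPKM with 4967 to 150661 reads behind them, and the lowest had a counting error of 1.42%. The 143 genes together took 2444311 to 3207995 reads in a library. Of the markers that could check the tissue label, 0 pistil and 0 petal genes are among these abundant genes, 6 green-tissue genes are, and the pollen and anther marker is 1 gene, an Olee1-like protein.

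From 15 min to 2 h, 32 of 143 genes rose in CR and 0 fell, which is 22.4% of the genes tested. The median change over all genes was 0.27 on the log2 scale, 133 changes were positive and 10 negative, and the range ran from -0.17 to 1.11. At an unadjusted p under 0.05 the limma fit gave 59 genes, of which 0 were lower, and limma-voom on the recovered reads called 38 higher and 0 lower. In 96 genes, 67.1% of those tested, each 2 h library lay above each 15 min library, and the reverse held for 2 genes, 1.4%. The count of 32 rests on particular libraries. It was 1 without CR 15 min replicate 2, which left elongation factor 1-alpha, 3 without CR 2 h replicate 1 and 11 without CR 15 min replicate 3.

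The whole table moved upward together. The median FPKM of a library was 898, 801 and 846 at 15 min and 1072, 1004 and 965 at 2 h, so the groups did not overlap. The means were 848 ± 48.5 and 1014 ± 54.0 (SD, n = 3), and the exact two-sided permutation test gave p = 0.1, its lowest possible value for 3 against 3 libraries. FPKM values are shares of a total: these genes took 13.5% ± 0.80 of the library size implied by the values at 15 min and 16.3% ± 0.80 at 2 h. A general rise of abundant transcripts and a drop of all others cannot be told apart here. Each test was therefore repeated after every library was centred on its own median, which takes a shift of 0.26 out of this comparison, and such changes are called relative. On the relative scale 13 genes rose (9.09% of those tested) and 11 fell (7.69%), 16.8% in all. That total of 24 was 8 without CR 15 min replicate 2, 11 without CR 15 min replicate 3, 15 without CR 2 h replicate 2 and 9 without CR 2 h replicate 3.

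**Figure D1:**
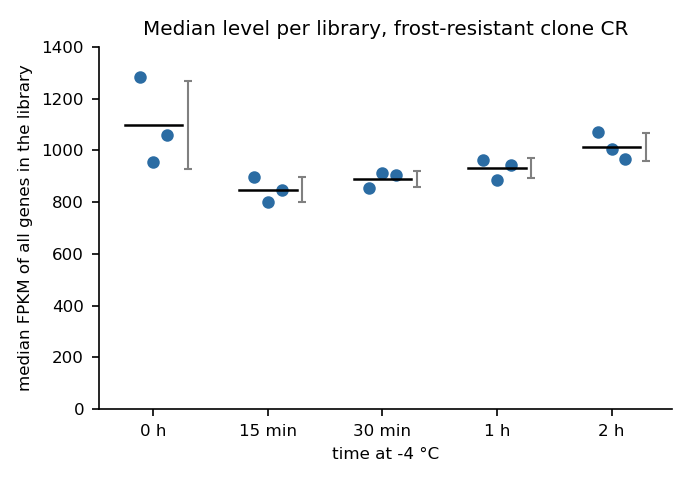
Median FPKM over the 143 genes in each CR library (points), by time at -4 °C, with the group mean (line) and SD (grey bar, n = 3). The 15 min libraries sit between 801 and 898 and the 2 h libraries between 965 and 1072, while the 0 h libraries spread from 954 to 1285.

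Elongation factor 1-alpha had the lowest adjusted p of the 32 genes that rose. The copy PaF106G0100000142.01 (chromosome 1, 874033 to 877141, in the unnamed genome build of the deposited table) stood at 560, 524 and 432 FPKM at 15 min and at 1039, 855 and 980 FPKM at 2 h. The lowest 2 h library was well above the highest 15 min library. The log2 change was 0.92 (SE 0.17, limma adjusted p = 0.00117), and the relative change was 0.67 (adjusted p = 0.00251). It was called in 6 of 6 fits that each left out 1 of the 6 libraries, with changes from 0.82 to 1.00. At 0 h it had stood at 1363, 830 and 851 FPKM, so all 3 libraries of 2 h lay inside the range of the start. Its level at 2 h differed from 0 h by -0.05, with a 95% interval from -0.40 to 0.30.

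The second copy of the same factor in the table, PaF106G0600022515.01 on chromosome 6, took another course. It stood at 689, 719 and 732 FPKM at 15 min and at 740, 657 and 615 FPKM at 2 h, and the groups overlapped. Its change was -0.09 (SE 0.13, adjusted p = 0.574), and relative to the median it fell by 0.35 (adjusted p = 0.00959). That relative call held in 4 of the 6 fits without 1 library, with a highest limma adjusted p of 0.059. At 15 min this second copy had differed from 0 h by -0.02, against -0.97 for the first copy. The difference between the copies was not tested itself, and reads that fit both copies could have been split by the authors' counting.

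Of the 3 glycine-rich proteins 2 were called higher, beside 22.4% of all genes, and their median change was 0.73 beside 0.27. GRP1A, a glycine-rich RNA-binding protein (PaF106G0800031435.01, chromosome 8, 12699316 to 12700308), stood at 1742, 945 and 1992 FPKM at 15 min and at 3828, 3328 and 2615 FPKM at 2 h. Its 2 h libraries were all above its 15 min libraries, which themselves differed widely. The change of 1.11 (SE 0.37, adjusted p = 0.0298) was the highest in the table, and on the relative scale 0.86 did not pass (adjusted p = 0.0725). GRP1A passed in 3 of the 6 fits without 1 library, with changes from 0.79 to 1.33.

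Glycine-rich protein 2 (PaF106G0800030641.01) stood at 712, 528 and 827 FPKM at 15 min and at 1373, 1098 and 951 FPKM at 2 h, with no overlap. It rose by 0.73 (SE 0.21, adjusted p = 0.0181) and by 0.48 relative to the median (adjusted p = 0.045), a call that held in 1 of the 6 fits without 1 library. Its level at 0 h had been 1414, 1017 and 913 FPKM, nearly the same span as at 2 h. The third member, glycine-rich RNA-binding protein 2, changed by 0.20 and did not pass (adjusted p = 0.417).

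Of the 43 genes for 60S proteins 11 rose (median 0.28), and of the 26 for 40S proteins 11 rose (median 0.32), beside 22.4% and a median of 0.27 over the whole table. All 69 changes were positive, as were 133 of 143 in the whole table, and in 59 of the 69 genes the 2 h libraries lay above the 15 min libraries throughout, as in 96 of 143 genes. L39, a small 60S protein (PaF106G0700026047.01), went from 841, 742 and 794 FPKM to 1356, 1182 and 1276 FPKM. The 15 min libraries lay close together and far below those of 2 h. L39 rose by 0.68 (SE 0.15, adjusted p = 0.00674), and by 0.42 on the relative scale (adjusted p = 0.00251). It was called in 5 of 6 fits without 1 library, with a highest adjusted p of 0.0596.

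The ends of the ribosomal lists stood far apart. Among 40S proteins S30 (PaF106G0300013999.01) had the highest change, 0.68 (adjusted p = 0.0284), from 745, 497 and 772 FPKM to 1239, 1004 and 952 FPKM. Its relative change of 0.43 did not pass. Next was S29 (PaF106G0800030893.01), which rose by 0.63 (adjusted p = 0.0181) from 1132, 800 and 1043 FPKM to 1630, 1467 and 1478 FPKM. In both genes the groups did not overlap, and replicate 2 was the lowest of the 15 min libraries. The acidic stalk protein P1, part of the site on the 60S subunit where elongation factors dock, rose by 0.53 (adjusted p = 0.0181) from 1056, 939 and 1011 FPKM to 1556, 1415 and 1368 FPKM. At the other end L3 changed by 0.02, L7a-1 by 0.07, L28-1 by 0.07 and S3a by 0.06, each with an adjusted p above the threshold. Relative to the median L28-1 fell by 0.19 (adjusted p = 0.0223) and L7a-1 fell by 0.19 (adjusted p = 0.0496), calls that held in 3 and 0 of the 6 fits without 1 library. On that scale 11 of the 69 ribosomal genes rose, 6 of the 60S and 5 of the 40S subunit, beside 9.09% of all genes. Among them were L34 and S16, whose relative rises were 0.25 (adjusted p = 0.0223) and 0.24 (adjusted p = 0.00959), and L27a-3 and S21-2, both at 0.22 (adjusted p = 0.0165 and 0.0223). The relative rises of L34, S16, L27a-3 and S21-2 were called in 3, 5, 3 and 2 of the 6 fits.

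Both copies of S29 and both copies of L26-1 rose. The other S29 gene (PaF106G0100004968.01) rose by 0.55 and the L26-1 genes by 0.55 and 0.53, with limma adjusted p of 0.0181, 0.0181 and 0.0208. All 4 of these genes also rose relative to the median. Those relative calls held in 3 (PaF106G0800030893.01) and 6 (PaF106G0100004968.01) of the 6 fits without 1 library for S29. For the L26-1 genes they held in 2 (PaF106G0600024194.01) and 1 (PaF106G0300014590.01). S8 did not behave so evenly: its copy PaF106G0100002020.01 rose by 0.40 (adjusted p = 0.0459), a call that held in 0 of the 6 fits. The copy on chromosome 4 had 0.23 (adjusted p = 0.16), and the difference between the S8 copies was not tested.

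**Figure D2:**
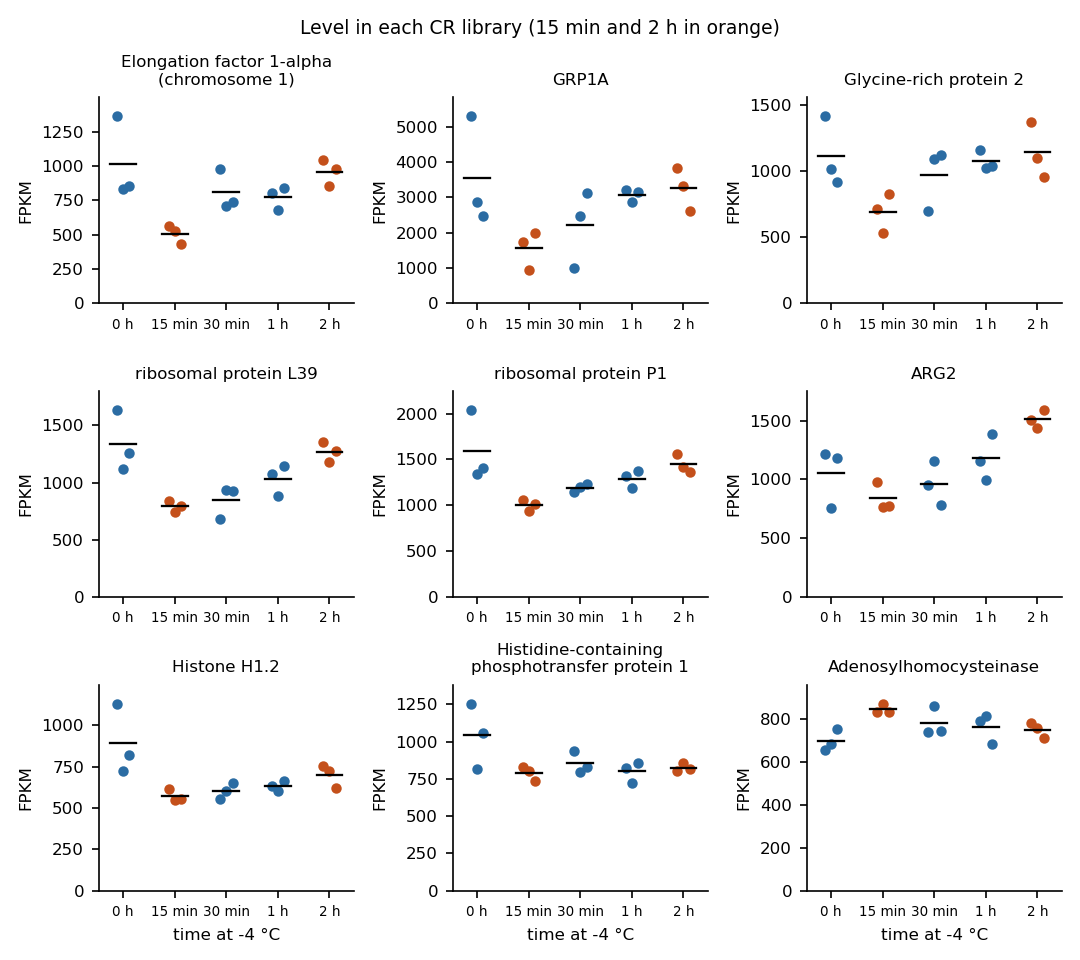
FPKM of 9 genes in each CR library (points) and the group mean (line), by time at -4 °C, with the compared times in orange. Elongation factor 1-alpha, the glycine-rich proteins, L39 and P1 are lowest at 15 min and higher at 2 h, while the phosphotransfer protein stays near 800 FPKM from 15 min on and adenosylhomocysteinase is highest at 15 min.

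Photosynthesis genes had positive changes of similar size, though 0 of 8 passed the limma test, beside 22.4% of all genes. At an unadjusted p under 0.05 7 of the 8 passed, beside 59 of 143 genes, and voom called 1 of the 8, beside 38 of 143. The 8 changes lay between 0.30 and 0.51 with a median of 0.39, beside 0.27 over all genes, and in each of the 8 genes the 2 h libraries were all above the 15 min libraries, against 67.1% of the table. The small chain of ribulose bisphosphate carboxylase, the enzyme that fixes carbon dioxide, stood at 2198, 1851 and 2087 FPKM at 15 min and at 2836, 3025 and 2837 FPKM at 2 h. Its change of 0.51 had an SE of 0.21 and an adjusted p of 0.0672. The light-harvesting protein LHCII type I stood at 1100, 839 and 1011 FPKM and then at 1505, 1343 and 1247 FPKM, a change of 0.48 (adjusted p = 0.0643). CP26, another light-harvesting protein, had the smallest change, 0.30 (adjusted p = 0.0672). Over the trend from 15 min to 2 h, described further on, 2 of the 8 rose, beside 28.7% of all genes. On the relative scale 0 of 8 passed and the median was 0.14.

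Of these 8, 6 are also the markers of green tissue such as sepals. Their summed level was 7826, 6389 and 6976 FPKM at 15 min and 9297, 9458 and 9186 FPKM at 2 h, so it did not overlap (exact permutation p = 0.1, the smallest possible). The pollen and anther marker ranged from 682 to 761 FPKM at 15 min and from 663 to 729 FPKM at 2 h, with overlap. Relative to the median this marker, the Olee1-like protein, fell by 0.31, a call that held in 6 of the 6 fits without 1 library. The part of a different tissue mix in these changes was not tested.

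Histones and high mobility group proteins, which package DNA, had 1 of 10 members called higher and a median of 0.31, beside 22.4% and 0.27 for all genes. Histone H3.3, the variant placed outside of DNA replication, stood at 747, 582 and 793 FPKM at 15 min and at 1175, 972 and 930 FPKM at 2 h, and the groups did not overlap. It rose by 0.54 (SE 0.17, adjusted p = 0.0247), and the relative change of 0.28 did not pass (adjusted p = 0.111). All 10 members had fallen at 15 min, beside 60.1% of all genes, and their median difference between 2 h and 0 h was -0.22, beside -0.12 for all genes. Histone H1.2, a linker histone, stood at 617, 549 and 557 FPKM at 15 min and at 753, 724 and 619 FPKM at 2 h, after 1133, 722 and 822 FPKM at the start. Its 2 h libraries lay above those of 15 min by a narrow margin, its change was 0.28 (adjusted p = 0.125), and its difference from 0 h was -0.33.

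Outside these groups the genes called higher were few. Defensin-like protein 2, a small antimicrobial protein, rose by 0.49 (adjusted p = 0.0298), and the ATP synthase 6 kDa subunit of mitochondria rose by 0.42 (adjusted p = 0.0208). A gene with the deposited name Putative uncharacterized protein ART3, which the description calls antisense to ribosomal RNA, stood at 308, 460 and 776 FPKM at 15 min and at 927, 1103 and 972 FPKM at 2 h. Its change of 1.06 passed (SE 0.37, adjusted p = 0.0427), but the 15 min libraries differed widely, the relative change of 0.80 did not pass (adjusted p = 0.154), and it passed in 1 of the 6 fits without 1 library. Another 3 genes called higher have no name: PaF106G0200010000.01 rose by 0.72, PaF106G0100004875.01 by 0.58 and PaF106G0600024234.01 by 0.40, with limma adjusted p of 0.0181, 0.0181 and 0.0298. Neither these 3 nor defensin-like protein 2 and the ATP synthase subunit passed on the relative scale. In FPKM the calls of the unnamed genes held in 3, 4 and 2 of the 6 fits without 1 library. Those of defensin-like protein 2 and the ATP synthase subunit held in 1 and 3.

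ARG2, an auxin-induced protein with a LEA domain, had the fourth highest change but did not pass. It stood at 980, 769 and 772 FPKM at 15 min and at 1509, 1436 and 1593 FPKM at 2 h, and the groups lay far apart. The change was 0.86 with an SE of 0.40 and an adjusted p of 0.101. That SE comes from the fit over all 10 groups, and in the fit to the groups compared alone 78 genes passed in place of 32. The relative change of ARG2 was 0.60 and did not pass. On either scale ARG2 was called in 0 of the 6 fits without 1 library. At 0 h ARG2 had stood at 1214, 753 and 1187 FPKM, so its 3 libraries at 2 h were all above the start. RCI2B, a small membrane protein induced by cold in Arabidopsis, had overlapping groups and a change of 0.21 (adjusted p = 0.528).

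**Figure D3:**
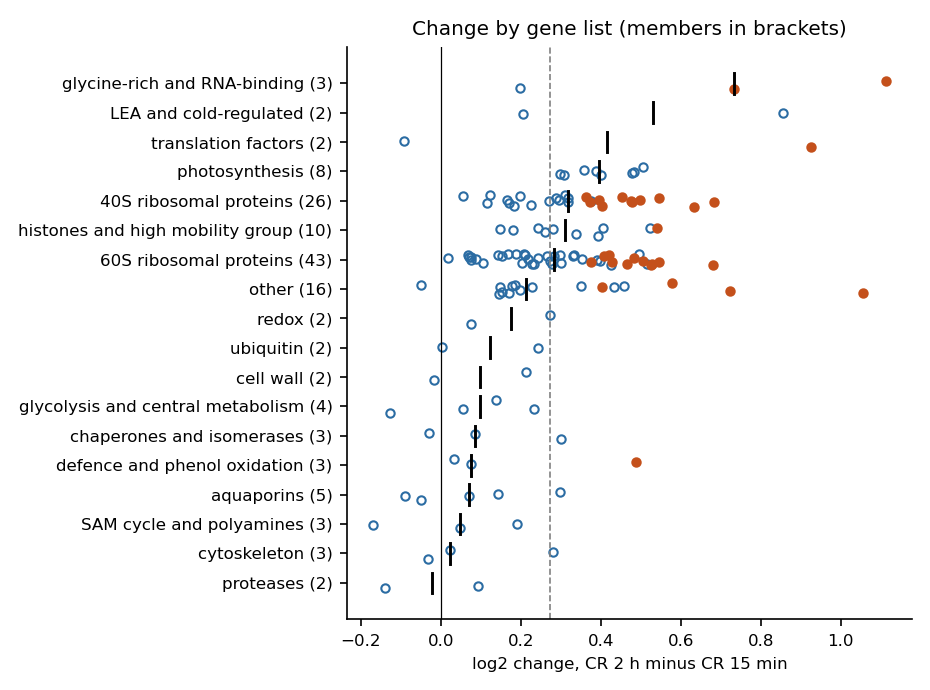
Log2 change of each gene from CR 15 min to CR 2 h by gene list (members in brackets), with filled points past an adjusted p of 0.05, black bars at list medians and the dashed line at the median of all genes, 0.27. Glycine-rich proteins have the highest median, 0.73, and aquaporins, cytoskeleton, proteases and the SAM cycle lie near 0.

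A number of single genes stayed near their 15 min level, and 11 genes fell relative to the library medians. Adenosylhomocysteinase, which recycles the by-product of methylation, had the lowest change of the table. It stood at 830, 872 and 831 FPKM at 15 min and at 782, 759 and 711 FPKM at 2 h, so the 2 h libraries were all lower. The change was -0.17 (SE 0.11, adjusted p = 0.189), and relative to the median it fell by 0.43 (adjusted p = 0.00959). It was also the 1 gene that had risen at 15 min, by 0.28 (adjusted p = 0.0272), from 657, 685 and 751 FPKM. That early call was lost with only the groups compared in the fit, without CR 0 h replicate 1 and without CR 15 min replicate 2, where 0 genes had risen.

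Malate dehydrogenase, an enzyme of central carbon metabolism, had a change of -0.13 and fell by 0.39 relative to the median (adjusted p = 0.00431). The aspartyl protease AED3 had -0.14 and fell by 0.40 (adjusted p = 0.00959), and the water channel PIP2-5 had -0.09 and fell by 0.35 (adjusted p = 0.045). In the same way tubulin beta-1, a building block of microtubules, fell by 0.29, the chaperone heat shock protein 90-2 fell by 0.29 and the hydrogen peroxide scavenger L-ascorbate peroxidase fell by 0.18, with adjusted p of 0.0284, 0.0223 and 0.0389. The Olee1-like protein fell by 0.31 (adjusted p = 0.000335). In the 6 fits without 1 library the relative fall was called in 6 for malate dehydrogenase and the Olee1-like protein and in 5 for adenosylhomocysteinase and AED3. It was called in 2 for tubulin beta-1 and heat shock protein 90-2, in 1 for L-ascorbate peroxidase and in 0 for PIP2-5, whose adjusted p reached 0.146. Each of these falls is relative: in FPKM itself none of them passed, and the highest of their changes was 0.07 in L-ascorbate peroxidase. Of the 11 relative falls 8 were in the 48 longest genes, described further on. Among other genes with low changes were the water channel PIP1-4 (-0.05) and the cell wall arabinogalactan protein 31 (-0.02), which did not pass on either scale.

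In several short lists no gene was called in FPKM, and lists of 3 to 5 genes are too small to set a count of 0 apart from the 22.4% of all genes. Aquaporins had 0 of 5 called higher (median 0.07), the cytoskeleton 0 of 3 (0.02), glycolysis and central metabolism 0 of 4 (0.10), chaperones and isomerases 0 of 3 (0.08), and the SAM cycle with polyamines 0 of 3 (0.05), beside 0.27 for all genes. Polyubiquitin, the precursor of the protein degradation tag, stood at 834, 694 and 715 FPKM and then at 849, 692 and 709 FPKM. The groups covered nearly the same range, and the change was 0.00 (SE 0.16). Polyphenol oxidase (0.08), the thaumatin-like protein (0.03), the lipid-transfer protein 1 (0.16) and the metallothionein-like protein type 2 (0.19) did not pass either.

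Among lists without a call, the highest members of the photosynthesis and LEA lists had changes of 0.51 and 0.86. The highest members of the short lists above and of redox, ubiquitin, cell wall and proteases had 0.09 to 0.30, beside the median of 0.27. They were the vacuolar water channel TIP1-1 (0.30), the peptidyl-prolyl cis-trans isomerase (0.30), the microtubule-associated SPIRAL1-like 1 (0.28), thioredoxin H-type (0.27), ubiquitin-like protein 5 (0.24), fructose-bisphosphate aldolase 1 (0.23), xyloglucan endotransglucosylase/hydrolase 9 (0.21), S-adenosylmethionine decarboxylase (PaF106G0300011722.01, 0.19) and the cysteine protease RD19A (0.09). In the histone list the lowest change was that of high mobility group B protein 2 (PaF106G0700026960.01, 0.15).

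How much of the first fall had been undone at 2 h was then set out gene by gene. From 0 h to 15 min 86 genes had fallen (60.1% of those tested) and 1 had risen (0.699%), 60.8% in all, with a median change of -0.39. The 15 min libraries enter both steps, so a low value there makes a fall and a later rise at once, and no agreement between the steps is read from their values. The fall itself leaned on CR 0 h replicate 1, the library with the highest median: without it 18 genes fell, and without CR 15 min replicate 2 48 fell. Of the 86 genes 31 were called higher at 2 h than at 15 min and 55 were not, beside 22.4% called higher among all genes. These counts are partly set by the shared 15 min libraries. At neither step were 55 genes of the table called. ART3 was the 1 gene called higher at 2 h that had not been called at 15 min.

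The share of the fall undone at 2 h ranged from 17.2% to 141%, with a median of 72.7%, and in 79 of the 86 genes the 2 h mean lay inside the range of the 3 libraries of 0 h. Over all genes this held for 129 of 143. That range is wide because CR 0 h replicate 1 had a median of 1285 FPKM and the others 954 and 1059. The smallest share was that of histidine-containing phosphotransfer protein 1, a carrier of cytokinin signals in Arabidopsis. It stood at 1255, 815 and 1060 FPKM at 0 h, at 828, 805 and 736 FPKM at 15 min and at 805, 858 and 814 FPKM at 2 h. Both later groups lay together at the bottom of the first, and its change from 15 min to 2 h was 0.07 (adjusted p = 0.688).

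The next smallest shares were 37.5% for the translationally-controlled tumor protein homolog, a growth-related protein, 43.9% for the uncharacterized protein At5g48480, 45.6% for histone H3.2 and 45.7% for histone H1.2. At the upper end stood the oxygen-evolving enhancer protein 1 of photosystem II with 98.6%, glycine-rich protein 2 with 106% and S8 (PaF106G0100002020.01) with 108%. The unnamed genes PaF106G0600024234.01 and PaF106G0100004875.01 reached 128% and 141%. A share has the error of both steps, and for these genes each rests on 3 libraries a time.

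The direct comparison of 2 h with 0 h, which leaves out the 15 min libraries, called 0 of 143 genes, 0.0% of those tested. At an unadjusted p under 0.05 it gave 6 genes, limma-voom on the recovered reads called 0, and the median difference was -0.12. The 95% interval reached a median of 0.29 to each side, and a gene that did not pass is not shown to have regained its level. The intervals of 5 genes lay below 0: histone H1.2 at -0.33, histidine-containing phosphotransfer protein 1 at -0.32, At5g48480 at -0.29, the ATP synthase 6 kDa subunit at -0.26 and ubiquitin-like protein 5 at -0.25. ART3 lay above 0, at 0.84. For these 6 genes the limma adjusted p was 0.796.

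At the times in between the median change grew step by step. Against 15 min, 0 genes (0.0%) were called at 30 min, where the median change was 0.06, and 0 at 1 h, where it was 0.14. At an unadjusted p under 0.05 limma gave 3 and 19 genes for these comparisons, of which 0 were lower. Relative to the library medians 2 genes (1.4%) were called at 30 min, elongation factor 1-alpha (PaF106G0100000142.01) higher by 0.60 and L28-1 at -0.25 (adjusted p = 0.0131 for both). At 1 h 2 genes (1.4%) were called, both lower, L28-1 at -0.22 and the Olee1-like protein at -0.22 (adjusted p = 0.0269 and 0.0262). The trend per doubling of time over the 4 times from 15 min to 2 h rose in 41 genes and fell in 0, 28.7% of those tested. That count was 2 without CR 15 min replicate 2 and 3 without CR 2 h replicate 1, 20 without CR 15 min replicate 3, 22 without CR 2 h replicate 3, and 26 without CR 2 h replicate 2 or either of CR 1 h replicates 1 and 3. The highest slopes were those of GRP1A (0.40 per doubling), ART3 (0.32), elongation factor 1-alpha (0.27), the unnamed gene PaF106G0200010000.01 (0.26) and glycine-rich protein 2 (0.24), with adjusted p of 0.0172, 0.0434, 0.00234, 0.0156 and 0.017. The lowest slopes that passed were those of the ribosomal proteins S18 and L21-1, both 0.11, and S9-2, S17 and S26-3, each 0.12.

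When the 15 min libraries were left out of the trend, L39 and the unnamed gene PaF106G0100004875.01 remained, each rising by 0.30 per doubling from 30 min to 2 h (adjusted p = 0.0317 for both). L39 stood at 685, 931 and 928 FPKM at 30 min and at 1078, 887 and 1142 FPKM at 1 h, so its mean grew from each time to the next. Elongation factor 1-alpha was at 976, 710 and 738 FPKM at 30 min and at 800, 681 and 839 FPKM at 1 h. Its values at these times lay between those of 15 min and 2 h, with overlap towards 2 h. GRP1A at 30 min ran from 993 to 3129 FPKM, so that 1 library was as low as at 15 min and the others were not.

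Short genes gained more than long ones. With genes in 3 groups by length, the median change was 0.39 in the 48 shortest (345 to 716 bases), 0.29 in the 47 of middle length and 0.14 in the 48 longest (1109 to 2480 bases), and 16, 11 and 5 of them rose. Relative to the library medians 7, 4 and 2 genes of these groups rose and 1, 2 and 8 fell. Spearman's rho between change and length was -0.53 across the 143 genes and -0.55 within the 69 ribosomal genes, given as a description, since genes of a library share its preparation and depth. In the first step, which uses the same 15 min libraries with the opposite sign, rho was 0.64. In NC from 15 min to 2 h it was 0.08. The slope of log2 level on log2 length was -0.24 ± 0.046 (SD, n = 3) in the 15 min libraries and -0.39 ± 0.011 in the 2 h libraries, with no overlap and an exact permutation p of 0.1, the smallest possible. The changes were recomputed after each library's fit of level on length was removed, an alternative chosen after seeing the data. Then 5 genes rose and 5 fell in place of 32 and 0.

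The 5 that rose without the length fit were elongation factor 1-alpha (0.80, adjusted p = 0.00259), glycine-rich protein 2 (0.50, adjusted p = 0.0436), L39 (0.24, adjusted p = 0.0316), S16 (0.20, adjusted p = 0.0316) and P1 (0.19, adjusted p = 0.0357). The same 5 rose both in FPKM and relative to the median. The 5 that fell were malate dehydrogenase (-0.38), adenosylhomocysteinase (-0.34), the Olee1-like protein (-0.34), L28-1 (-0.33) and AED3 (-0.31). For L28-1 this turned a change of 0.07 in FPKM into a fall. The relative falls of tubulin beta-1, heat shock protein 90-2, L-ascorbate peroxidase, PIP2-5, L7a-1 and elongation factor 1-alpha (PaF106G0600022515.01) were not called then. Their limma adjusted p ran from 0.108 to 0.364. Nor were the relative rises of L34, L27a-3, S21-2 and both copies of S29 and L26-1 called, with limma adjusted p from 0.0716 to 0.18. The copy of elongation factor 1-alpha that rose is among the longer genes, with 1946 bases.

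**Figure D4:**
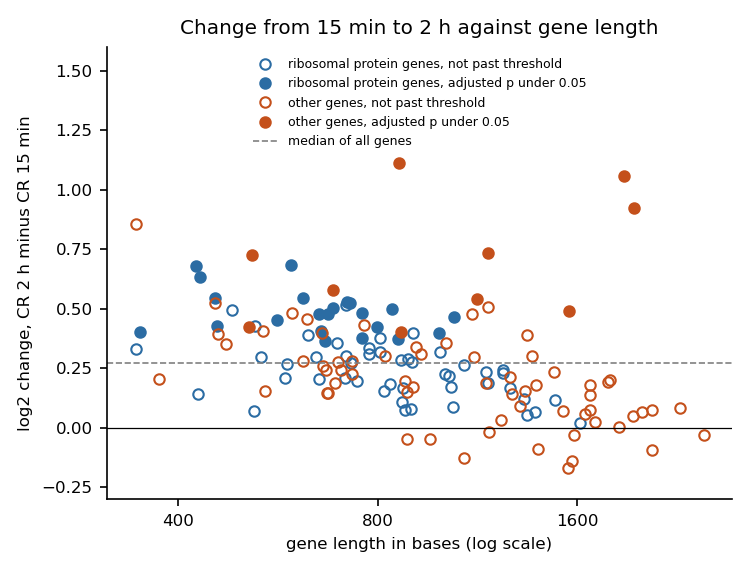
Log2 change from CR 15 min to CR 2 h against gene length in bases (log scale), with ribosomal protein genes in blue, other genes in orange and filled points past an adjusted p of 0.05. Changes fall with length in both sets (rho -0.53 over all genes), and elongation factor 1-alpha (1946 bases, 0.92) stands above the others of its length with ART3 (1.06).

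In the frost-sensitive clone the same stretch of cold went the other way. NC had 8 genes higher (5.59% of those tested) and 98 lower (68.5%) at 2 h than at 15 min, 74.1% in all, with a median change of -0.44. The test of the difference between the clones called 113 genes with a more positive change in CR (79.0%) and 3 with a more negative one (2.1%), 81.1% of the table, with a median difference of 0.68. All 69 ribosomal genes were among the 113. Relative to the library medians 37 genes were more positive in CR (25.9%) and 16 more negative (11.2%), 37.1% of the table, so the split depends on the scale.

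Elongation factor 1-alpha stood at 392, 550 and 526 FPKM in NC at 15 min and at 476, 344 and 378 FPKM at 2 h, with overlap and a lower mean. The difference between the clones' changes was 1.22 (SE 0.24, limma adjusted p = 0.000393), and 0.64 on the relative scale (adjusted p = 0.0111). GRP1A differed by 1.64 (adjusted p = 0.00642), LHCII type I by 1.44 (adjusted p = 0.000261), ART3 by 1.47 (adjusted p = 0.0138) and P3-1, a stalk protein of the 60S subunit, by 1.31 (adjusted p = 0.000549). On the relative scale GRP1A (adjusted p = 0.0678) and ART3 (adjusted p = 0.24) did not pass, and the others did.

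The 3 genes with a more negative change in CR were genes that rose in NC. ARG2 stood at 343, 587 and 670 FPKM in NC at 15 min and at 3026, 6019 and 1744 FPKM at 2 h, a change of 2.62 against 0.86 in CR. All NC libraries at 2 h were above all CR libraries at that time, though they differed widely among themselves. The difference was -1.77 (SE 0.57, adjusted p = 0.00703). The metallothionein-like protein type 2, a metal-binding protein, differed by -1.85 (adjusted p = 0.00169) and polyubiquitin by -1.06 (adjusted p = 0.000501), and both had changes in CR that did not pass.

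**Figure D5:**
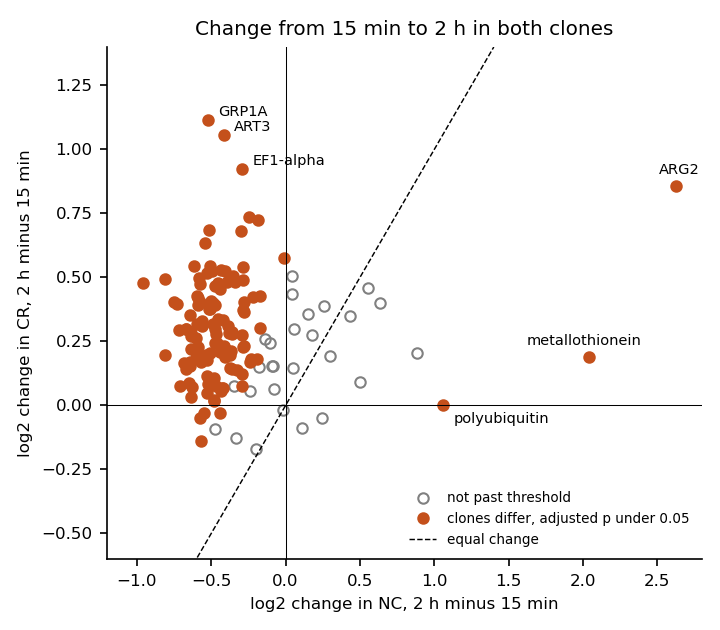
Log2 change of each gene from 15 min to 2 h in CR (vertical) against NC (horizontal), with filled points where the clones' changes differ at an adjusted p under 0.05 and a dashed line of equal change. Most genes lie to the upper left, positive in CR and negative in NC, and ARG2, metallothionein and polyubiquitin lie to the right, with NC changes of 2.62, 2.04 and 1.06.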

How the data were processed

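RNA sequencing values of 30 flower libraries (10 groups of clone and time, 3 replicates each) were used. The authors deposited FPKM per gene, 1 column per library, with gene length in bases as another column of the deposited table. Per the submitters' processing notes the tools were HISAT2, Picard, SAMtools 0.1.18 and GATK, in roles that are not stated. For the read counter, annotation and genome build, no name is given in the sources used here. Analysed were the 143 complete genes of high mean FPKM, and 1 incomplete entry was left out. FPKM times length gave whole multiples of 1 step per library for 4290 of 4290 values (tolerance 1e-06), and the reads so recovered served for counting errors and a voom fit.

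Limma 3.58.1 in R 4.3.3 fitted 10 group means to all 30 libraries on the log2(FPKM + 1) scale, with limma's trend option, two-sided p and Benjamini-Hochberg adjustment over 143 genes. The fold change of low genes is understated by the pseudocount of 1, which is small beside the lowest value of 308 FPKM in the compared libraries. A filter that kept genes with 3 or more libraries at an FPKM of 1 or higher removed no gene. Relative changes come from values centred on each library's median. The fit was tested on simulated data, which held no shift shared by the genes of a library and no change that followed gene length. The share undone is the 2 h minus 15 min change divided by the 0 h minus 15 min difference. Genes were put into lists by words in their description, and 1 list, CBF/DREB cold regulators, had 0 members here. The named genes were the 12 highest and 12 lowest changes on both scales, the 5 highest and 5 lowest slopes and clone differences, the ends of each list and the 5 smallest and 5 largest shares undone. Copies sharing a name with a named gene, and genes whose interval excluded 0, were added after their values were seen. The genes, lists and tests were chosen with earlier results of these data known.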

Additional observations from a re-analysis of the deposited data

Results flagged for a closer look

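The change from 15 min to 2 h differed between the clones by limma's test of the difference itself in 116 genes, 113 more positive in CR and 3 more negative. The difference, CR minus NC on the log2 scale, was 1.64 in GRP1A, 1.47 in ART3, 1.44 in LHCII type I, 1.31 in P3-1 and 1.22 in elongation factor 1-alpha (PaF106G0100000142.01). It was -1.85 in the metallothionein-like protein type 2, -1.77 in ARG2 and -1.06 in polyubiquitin. In NC the 2 h libraries had medians of 749, 544 and 555 FPKM, so replicate 1 stood apart from the others. Without it 117 genes were more positive in CR and 4 more negative.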

How the results depend on the processing

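The 32 rises from 15 min to 2 h stayed at 32 with a pseudocount of 0.1 or 10 and with no filter, and the same 32 genes were among 34 calls without the mean-variance trend and among 38 with voom on the recovered reads. Counts moved with the libraries that set the spread and with gene length. With only the groups compared in the fit, the step had 78 calls, 15 min against 0 h 54 (22 when centred), 2 h against 0 h 1 (2 when centred) and the trend 81; the cause was not tested. With the length fit removed there were 10 calls for the step (5 higher and 5 lower in place of 32 and 0), 7 for 15 min against 0 h, 11 for the trend and 49 for the clone difference, with the same counts on the centred scale. The trend over 30 min to 2 h alone, which uses fewer samples, called 2 genes (1 when centred). The centred clone difference had 82 calls when libraries were centred on genes outside the ribosomal lists, and the cause was not tested.

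Leaving out 1 library at a time gave 1 to 39 calls for the step (8 to 21 centred), 18 to 106 for 15 min against 0 h (4 to 42 centred), 0 to 0 for 2 h against 0 h on both scales, 2 to 45 for the trend (7 to 31 centred), 104 to 121 for the clone difference (41 to 65 centred) and 136 to 190 FPKM for the difference of the library medians, whose smallest possible p is then 0.2. Such fits assume that a group left with fewer samples varies like the others. Over the named genes 1935 values kept their side of the threshold, 205 lost it and 28 gained it. L28-1 reversed, from 0.07 to -0.33 (adjusted p = 0.00298) with the length fit removed, and the cause was not tested. Among the 1935, 66 values crossed 0 with no call on either side, such as that of PIP1-4.

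A fit with the replicate number as a block gave 38 calls for the step and 20 when centred, 0 for 2 h against 0 h, and 119 for the clone difference. Deviations of same-numbered libraries at 15 min and 2 h correlated by 0.17, 0.10 and -0.56, so the numbers were not taken as pairs, and not every library correlated best with its own number.

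The 143 genes are abundant ones, their counting error is small beside the spread of replicates, and 3 libraries a group limit what can be seen: the 95% interval of a difference between groups reached a median of 0.29 to each side on the log2 scale.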
